A study of Mus musculus with 4 samples.

Results

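Aquaporins are membrane channels for water, and some of them also pass glycerol. The genes described here are 8 mouse aquaporins, Aqp1, Aqp2, Aqp3, Aqp4, Aqp6, Aqp7, Aqp8 and Aqp11, together with Avpr2, the V2 receptor for the antidiuretic hormone vasopressin. They were taken as the rows of the count files whose Ensembl identifier, with its version dropped, maps to these symbols. This gave 9 genes of 55401, and all 9 had reads in each of the 4 libraries. The libraries hold poly-A RNA, 1 each from a CLP kidney, a CLP + MLT kidney, a CLP heart and a CLP + MLT heart of C57BL/6 mice. CLP (cecal ligation puncture) is a surgical model of sepsis in which the tied-off gut is pierced, and all 4 groups had received it, so no unoperated control was used here. MLT is melatonin. For the kidneys, the study's methods give male mice of 8 weeks, 25 μg/ml of melatonin in drinking water for 14 days, CLP on day 15 and collection 24 h after CLP, and they do not describe the hearts. The number of mice behind a library is not stated. With 1 library per group, differences between CLP + MLT and CLP within a tissue have no estimate of the variation among mice to be compared with.

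In the kidney, AQP1 in the proximal tubule and thin descending limb carries most of the water that is taken back from the filtrate. The last adjustment takes place in the collecting duct. There vasopressin binds the V2 receptor on principal cells, the cyclic AMP signal moves AQP2 to the apical membrane, and water leaves the cell at the basolateral side through AQP3 and AQP4. AQP6 lies in vesicles of the acid-secreting intercalated cells, AQP7 passes water and glycerol in the last proximal segment and in fat cells, and AQP11 lies inside proximal tubule cells. AQP8 is better known from gut, liver and pancreas. In the heart, AQP1 is known from the endothelium of the capillaries.

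Reads counted on genes ranged from 15883057 to 22927905 per library, and a further 50.85% to 51.46% of the reads placed on a gene, on none or ambiguously fell on no gene. The tissues matched their labels. All 10 cardiomyocyte markers were called higher in heart, and all 10 principal cell, all 10 intercalated cell, all 8 early and all 5 late proximal tubule markers were called higher in kidney by the test described for the comparison of the tissues. The intervals given below are 95% exact intervals on the reads. They cover counting error only and not the variation among mice. PCR copies are not independent molecules, so the intervals may be too narrow even for counting error.

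The 9 genes lie on 6 chromosomes of GRCm38, the same build as mm10. Aqp2 (chr15:99579055-99584547, plus strand) and Aqp6 (chr15:99601400-99605477, plus strand) are neighbours with 16852 bases between them, in which Aqp5 also lies. Aqp3 (chr4:41092722-41098183, minus strand) and Aqp7 (chr4:41033074-41048139, minus strand) are 44582 bases apart. Aqp8 (chr7:123462291-123468004, plus strand) and Aqp11 (chr7:97724006-97738289, minus strand) share a chromosome at a greater distance. Aqp1 lies at chr6:55336432-55348555 on the plus strand, Aqp4 at chr18:15389496-15410982 on the minus strand and Avpr2 at chrX:73892102-73895502 on the plus strand. In the GENCODE M21 annotation only Avpr2 of the 9 shares exon bases with another gene, as described with its values.

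**Figure D1:**
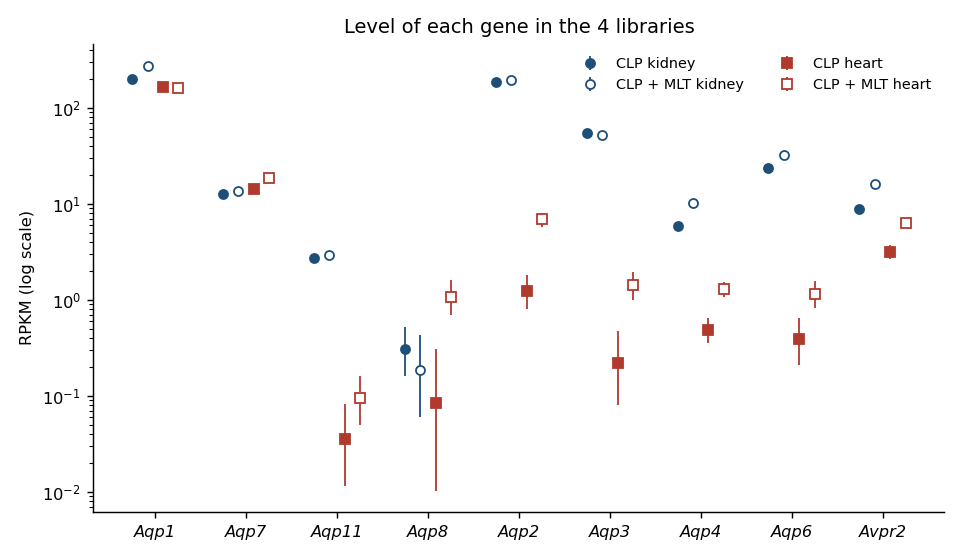
Level of each gene in the 4 libraries, in RPKM on a log scale. Circles are kidney and squares heart, filled symbols are CLP and open symbols CLP + MLT, and bars are 95% counting intervals. Aqp1 and Aqp7 sit at similar heights in both tissues, while the heart symbols of Aqp2, Aqp3, Aqp4, Aqp6 and Aqp11 lie well below the kidney symbols.

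Levels between genes were compared per length, as RPKM, the reads per kb of exon per 1000000 reads, with the TMM scaling taken over all 4 libraries. In the CLP kidney the order was Aqp1, Aqp2, Aqp3, Aqp6, Aqp7, Avpr2, Aqp4, Aqp11 and Aqp8, and no counting interval overlapped that of its neighbour. In the CLP + MLT kidney Avpr2 stood above Aqp7, and the other places were the same. In the CLP heart the order was Aqp1, Aqp7, Avpr2, Aqp2, Aqp4, Aqp6, Aqp3, Aqp8 and Aqp11. There the intervals of Aqp4 and Aqp6, of Aqp6 and Aqp3, of Aqp3 and Aqp8 and of Aqp8 and Aqp11 overlapped. In the CLP + MLT heart Aqp2 stood above Avpr2 and Aqp3 above Aqp4, and the intervals of those pairs overlapped, as did those of Aqp4 with Aqp6 and of Aqp6 with Aqp8. The exon lengths come from GENCODE M21, which may differ from the annotation the reads were counted on.

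The first question was whether the proximal tubule members differed between the CLP + MLT and CLP kidneys. Aqp1 was the most abundant of the 9 genes, at 203 RPKM (200 to 206) in the CLP kidney and 274 (269 to 279) in the CLP + MLT kidney. Its reads numbered 14358 in CLP and 12283 in CLP + MLT, the smaller library, which after TMM scaling was a log2 ratio of 0.43 (0.40 to 0.47), or 1.35-fold. Aqp1 was therefore higher in the CLP + MLT kidney library but short of 1.5-fold, the fold used here to call a gene. Aqp7 was counted 959 times in CLP and 660 times in CLP + MLT, a log2 ratio of 0.12 (−0.03 to 0.26). Aqp11 was counted 699 and 471 times, a log2 ratio of 0.09 (−0.08 to 0.26). For both, the interval included no difference, and the sign turned when the libraries were scaled by their total counts only (−0.06 and −0.09). Aqp8 had 13 reads in CLP and 5 in CLP + MLT, under the minimum mean of 10 counts, and its log2 ratio of −0.68 (−2.56 to 0.86) had no direction that this depth could show.

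Marker genes of the segments in which these channels lie moved unevenly in the same kidney libraries. All 5 markers of the last proximal segment were above 0 and 1 was called higher, Slc7a13, an amino acid transporter subunit, with a log2 ratio of 2.22 (2.14 to 2.31). Of the 8 markers of the first segments 4 were above 0, of which 1 was called higher, the phosphate transporter gene Slc34a1 at 0.62 (0.60 to 0.64), and 4 were called lower, among them Slc5a2, the glucose transporter SGLT2, at −2.25 (−2.37 to −2.13) and Slc5a12, a lactate transporter, at −3.33 (−3.74 to −2.96). Of the 5 thin limb markers 4 passed the filter, 3 of them were below 0 and none was called, with a median of −0.36 and a summed level of 162 CPM in the CLP kidney and 118 CPM in the CLP + MLT kidney. Aqp1 was above 0 in the same libraries. Endothelial markers, which bear on Aqp1, summed to 474 CPM in the CLP kidney and 385 CPM in the CLP + MLT kidney, with 1 of 12 called lower. The part of these markers in the Aqp1 value was not tested. In such bulk tissue, fewer cells of a type and less RNA per cell cannot be told apart.

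The collecting duct members split in the kidney. Aqp2 and Aqp3 differed little between the libraries, while Aqp4 and Avpr2 were higher in the CLP + MLT kidney. Aqp2 stood at 187 RPKM (182 to 191) in the CLP kidney and 196 (190 to 201) in the CLP + MLT kidney. It was counted 7139 and 4741 times, a log2 ratio of 0.07 (0.01 to 0.12) with TMM and −0.11 by total counts only, so its direction depended on the scaling. Aqp3 was counted 2726 and 1638 times, a log2 ratio of −0.08 (−0.17 to 0.01). By total counts only Aqp3 was at −0.26, so neither channel reached 1.5-fold under either scaling. Aqp4 was counted 984 times in CLP and 1094 times in CLP + MLT, a log2 ratio of 0.81 (0.69 to 0.94), or 1.75-fold. Avpr2 was counted 697 and 802 times, a log2 ratio of 0.86 (0.71 to 1.01), or 1.82-fold. The raw counts of Aqp4 and Avpr2 were larger in CLP + MLT although the CLP + MLT library held fewer reads. Aqp6, the channel of intercalated cells, was counted 1532 and 1327 times, a log2 ratio of 0.45 (0.34 to 0.56), or 1.37-fold.

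Aqp2 and Aqp3 are the most abundant collecting duct members, and the 250 bases before the start of each are shown because AQP2 is the member whose transcription is known to follow cyclic AMP. RefSeq promoter windows of GRCm38.p6 were found for 8 of the 9 genes, with 9 windows in all since Aqp7 has a pair of them. Each was searched on both strands for the whole cAMP response element TGACGTCA, its core TGACG, which lies within the whole element, and the GATA core AGATAA. Capitals mark matches, and both sequences run 5′ to 3′ on the strand of the gene.
Aqp2, chr15:99578806-99579055, plus strand: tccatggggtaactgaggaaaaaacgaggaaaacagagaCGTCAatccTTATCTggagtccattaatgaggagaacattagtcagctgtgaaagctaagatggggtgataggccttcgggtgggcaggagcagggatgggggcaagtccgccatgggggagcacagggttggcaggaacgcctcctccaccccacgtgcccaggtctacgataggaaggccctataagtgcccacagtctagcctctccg
Aqp3, chr4:41098184-41098433, minus strand: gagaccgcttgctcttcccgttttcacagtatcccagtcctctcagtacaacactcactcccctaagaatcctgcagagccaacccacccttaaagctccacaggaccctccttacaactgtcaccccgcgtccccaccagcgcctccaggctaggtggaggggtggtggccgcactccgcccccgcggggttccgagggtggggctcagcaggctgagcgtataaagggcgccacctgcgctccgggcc
The Aqp2 window holds the core TGACG on the opposite strand, 211 bases before the start, and AGATAA on the opposite strand, 202 bases before the start. The Aqp3 window holds none of the 3 motifs. Of the other 7 windows, only 1 of Aqp7 holds a match, AGATAA at 132 bases before the start. Over all 32851 promoter windows of this length, 17.8% hold TGACG, 9.99% hold AGATAA and 1.55% hold TGACGTCA. These matches are letters in a window and say nothing of whether a factor was bound.

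**Figure D2:**
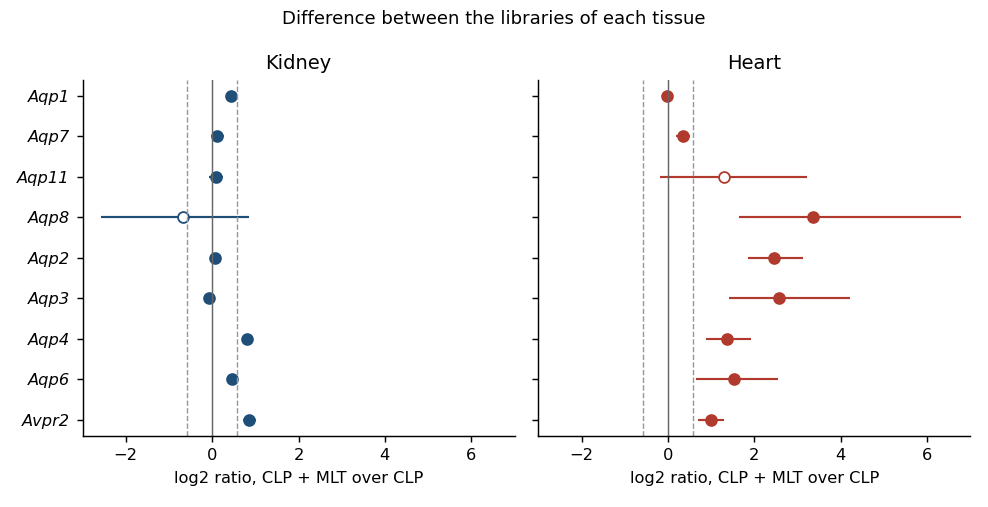
Log2 ratio of CLP + MLT over CLP for each gene in kidney (left) and heart (right), with 95% counting intervals. Dashed lines mark 1.5-fold and open symbols genes under a mean of 10 counts; in kidney only Aqp4 and Avpr2 lie past the upper line, and in heart 6 filled symbols do.

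In total, 8 of the 9 genes passed the filter in kidney, 2 were called higher and none lower at 1.5-fold. Over all 16932 genes of the kidney comparison 10.6% were called higher and 12% lower, and the median log2 ratio was −0.011, against 0.28 over the 8 members. Scaling by total counts moved the median of all genes to −0.19, where Aqp4 stood at 0.63 and Avpr2 at 0.68, both still past 1.5-fold. When mice were assumed to vary by a coefficient of 0.2 in edgeR's exact test, with a p-value of at most 0.01 asked for, 0 of the 9 genes were called in kidney, where 276 genes were called higher among all genes.

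Ratios of 2 genes within a library do not depend on the scaling. In the kidney there were 0.361 reads of Aqp4 for each read of Aqp3 in CLP and 0.668 in CLP + MLT, a log2 change of 0.89 (0.73 to 1.04). The share of Aqp3 against Aqp2 went from 0.382 to 0.346 reads, a log2 change of −0.14 (−0.25 to −0.04). In the whole kidney tissue the reads thus shifted from Aqp3 towards Aqp4, while Aqp3 and Aqp2 kept nearly the same proportion. From which cells the reads of each gene came was not tested. In the heart, Aqp4 against Aqp3 had a log2 change of −1.28 (−2.91 to 0.10), an interval that included no change, on 6 reads of Aqp3 in the CLP heart. Aqp4 against Aqp2 had a log2 change of 0.74 (0.61 to 0.88) in kidney and −1.08 (−1.92 to −0.26) in heart, on 26 reads of Aqp2 in the CLP heart.

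Markers of principal cells moved in the same mixed way in kidney. Of 10 markers, 6 were above 0 and 4 below, 3 were called higher and none lower, and their summed level was 861 CPM in CLP and 891 CPM in CLP + MLT. Fxyd4, a regulator of the sodium pump, had a log2 ratio of 0.85 (0.72 to 0.99) and the transcription factor Gata3 one of 0.66 (0.46 to 0.86). Elf5, the remaining marker called, was counted 80 and 89 times, at 0.81 (0.36 to 1.27), and is named after its value was seen. The sodium channel subunit Scnn1b had 0.46 (0.33 to 0.58) and the steroid enzyme Hsd11b2 0.40 (0.33 to 0.46), both short of 1.5-fold. Of the 4 below 0, the transcription factor Tfcp2l1, with 8790 and 4522 reads, was at −0.30 (−0.35 to −0.25), Npnt at −0.19 (−0.27 to −0.10) and Scnn1g, another sodium channel subunit, at −0.12 (−0.27 to 0.02), while Hoxb7 was at −0.0042 (−0.23 to 0.22). All 10 intercalated cell markers were above 0, with 4 called higher and a median of 0.51, beside the 0.45 of Aqp6. Of the 8 thick limb and distal markers 6 were above 0 and 2 below, with 3 called higher, none lower and a median of 0.42. Those called were Slc12a1 at 1.06 (1.03 to 1.08), Egf at 0.99 (0.95 to 1.03) and Trpm6 at 0.95 (0.72 to 1.19). The part of these markers in the values of the channels was not tested.

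Avpr2 carries a limit of its own. Of its 2886 exon bases 2347, or 81.3%, are also exon bases of Arhgap4, a gene on the opposite strand, and 539 are free. No source used here says whether the counting used strand, so it is not known how reads over the shared bases were assigned. Whether reads of Arhgap4 are among those counted on Avpr2 is therefore not known either. The level of Avpr2 per length, its log2 ratios and its difference between the tissues are all uncertain for this reason. Arhgap4 was counted 919 times in the CLP kidney and 975 times in the CLP + MLT kidney, a log2 ratio of 0.74 (0.61 to 0.88). In heart it was counted 303 and 608 times, a log2 ratio of 1.01 (0.81 to 1.21). Both ratios lie close to those of Avpr2. Avpr2 took 43.1% (40.7 to 45.6) of the reads of the pair in the CLP kidney and 45.1% (42.8 to 47.5) in the CLP + MLT kidney. In heart it took 31.0% (26.7 to 35.5) in CLP and 30.7% (27.6 to 33.8) in CLP + MLT. The share thus differed between the tissues but, within each tissue, the intervals of CLP and CLP + MLT overlapped.

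**Figure D3:**
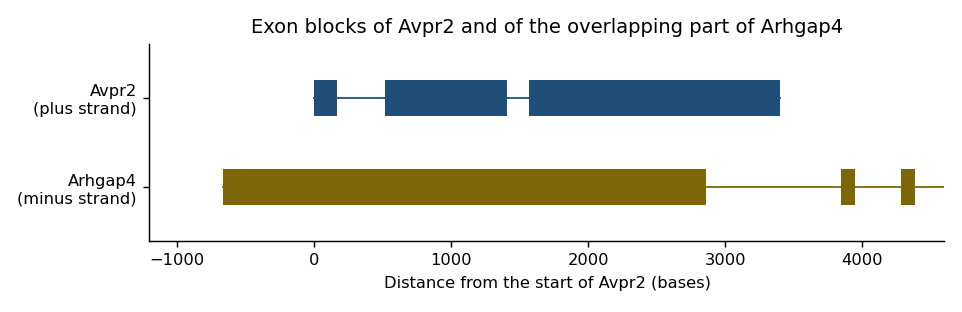
Exon blocks of Avpr2 (top, plus strand) and of the part of Arhgap4 nearest to it (bottom, minus strand), merged over transcripts and drawn to scale by distance in bases from the start of Avpr2. The first Arhgap4 block covers 2347 of the 2886 exon bases of Avpr2, and only the end of the last Avpr2 block is free of it.

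The ligands and other receptors of this system were sparse. Avp, the vasopressin gene, and Avpr1b, a receptor of the pituitary, had 0 reads in all 4 libraries, which allows up to 3 reads in each. Avpr1a, the vascular V1a receptor, was counted 167 times in the CLP kidney, 94 times in the CLP + MLT kidney, and 4 and 6 times in the hearts. Its log2 ratio in kidney was −0.17 (−0.55 to 0.20). Oxtr, the oxytocin receptor, was counted 23 and 3 times in the kidneys and 1 and 8 times in the hearts, and the ratio in kidney was −2.14 (−4.66 to −0.55). Oxt, the gene of oxytocin, had 1 read in the CLP heart and 0 elsewhere. The aquaporins Mip, Aqp5, Aqp9 and Aqp12 had between 0 and 6 reads in every library, so their levels could not be compared at this depth.

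Downstream of the V2 receptor lies the stimulatory G protein, adenylate cyclase and protein kinase A. Of 16 such genes in kidney, all passed the filter, 1 was called higher and 1 lower, with a median of −0.07. Gnas, which encodes the stimulatory G protein, had a log2 ratio of 0.39 (0.36 to 0.43) and Adcy6, the main vasopressin-sensitive cyclase of the collecting duct, one of 0.40 (0.34 to 0.46). The catalytic subunit gene Prkacb was at −0.34 (−0.50 to −0.17). Pde3a, a phosphodiesterase that degrades cyclic AMP, was called lower at −0.86 (−1.28 to −0.47). Prkar2b, a regulatory subunit of the kinase, was called higher at 1.15 (0.50 to 1.86) on 33 and 47 reads and is named after its value was seen. In heart 1 of the 16 genes was called higher, Pde4d, another phosphodiesterase, at 0.70 (0.52 to 0.89), and none lower.

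Regulators of Aqp2 transcription and of AQP2 trafficking were listed as well. Of 13 transcriptional regulators in kidney 4 were called higher and none lower, among them the mineralocorticoid receptor gene Nr3c2 at 0.66 (0.41 to 0.91), and Gata3 and Elf5 as given above. Gata2 was at 0.58 (0.43 to 0.74), just under 1.5-fold. Of 22 trafficking genes 1 was called lower and none higher. This was Sgk1, a kinase induced by aldosterone, at −0.68 (−0.79 to −0.58). The median of the trafficking list was −0.09, and Aqp2 at 0.07 lay between the medians of the regulators (0.29) and of the trafficking genes.

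Genes that hold osmolytes and urea in the medulla were below 0 throughout in the kidney. All 7 had a log2 ratio below 0 with a median of −0.48, and 1 was called lower, Akr1b3, the aldose reductase that makes sorbitol, at −0.67 (−0.81 to −0.54). Slc14a2, the urea transporter that vasopressin regulates in the inner medulla, was counted 2901 and 1322 times, at −0.48 (−0.57 to −0.38). The taurine transporter Slc6a6 was at −0.32 (−0.37 to −0.26) and the inositol transporter Slc5a3 at −0.30 (−0.37 to −0.23). With total counts only, every one of these values would lie lower still, since that scaling shifts all kidney ratios down together. Nfat5, the transcription factor known to drive osmolyte genes, was counted 2419 and 1467 times, at −0.06 (−0.16 to 0.03). The thin limb markers, which include Slc14a2, were also mostly below 0, as given above. How much medulla each kidney piece held is not given, and its part in these values was not tested.

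Glycerol, which AQP3 and AQP7 pass, is taken up into metabolism by glycerol kinase. Gk, its gene, was called higher in the CLP + MLT kidney at 0.74 (0.69 to 0.80). Of the other 5 genes of glycerol metabolism 3 were called lower, Gpd1 at −0.93 (−0.99 to −0.86), Gpd2 at −0.90 (−1.14 to −0.66) and the fat lipase gene Pnpla2 at −0.61 (−0.70 to −0.51). Aqp7 and Aqp3 moved with neither direction. In heart 0 of the 6 genes were called higher and 2 lower, Pnpla2, counted 4626 and 2298 times, and Gpd1 at −0.60 (−0.79 to −0.41). Gk was at 0.57 (0.42 to 0.71), short of 1.5-fold, and the Aqp7 ratio was 0.34 (0.19 to 0.50).

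**Figure D4:**
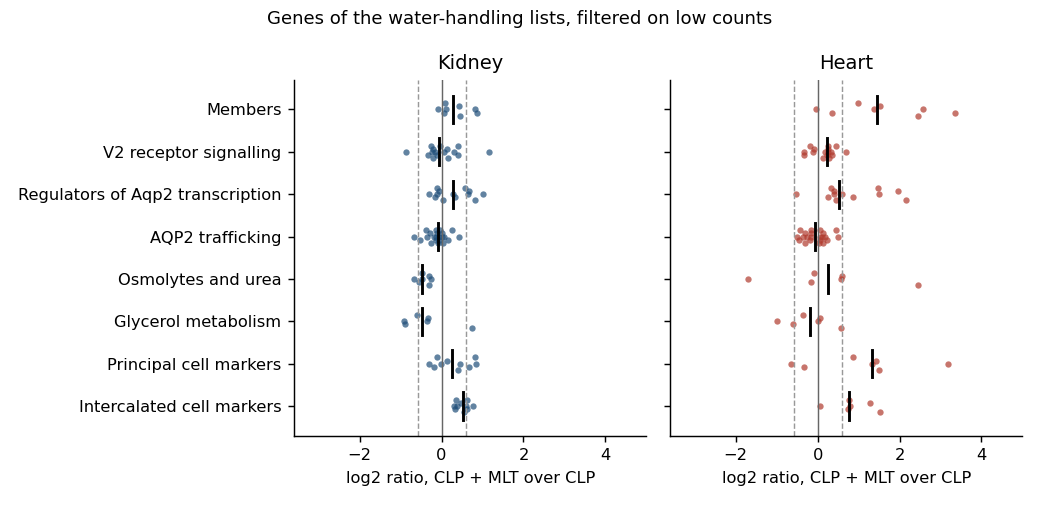
Log2 ratio of CLP + MLT over CLP for each gene that passed the filter, by list, in kidney (left) and heart (right). Points are genes, black bars list medians and dashed lines 1.5-fold; in kidney the osmolyte and urea genes all lie below 0 and the intercalated cell markers all above 0.

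In the heart, Aqp1 and Aqp7 were the most abundant members in both libraries. Aqp1 was counted 6382 and 6224 times, at 164 (160 to 168) and 162 (158 to 166) RPKM, and its log2 ratio of −0.03 (−0.08 to 0.02) turned to 0.03 by total counts only. Endothelial markers in heart had 9 of 12 values above 0, with 2 called higher, and summed to 2040 CPM in CLP and 2329 CPM in CLP + MLT. Aqp7 was counted 608 and 768 times, a 1.27-fold difference. Of 8 fat cell markers, which bear on Aqp7, only 2 passed the filter in heart, Fabp4 at 0.13 (0.11 to 0.16) and Plin4 at −0.42 (−0.46 to −0.37), and the defining Adipoq, Plin1, Cidec, Lep and Retn had between 0 and 12 reads in each heart library. The most abundant cardiac channel was thus within its counting error of equal, and Aqp7 was somewhat higher in the CLP + MLT heart library.

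The other members were low in heart and higher in the CLP + MLT library. Aqp2 was counted 26 times in the CLP heart and 143 times in the CLP + MLT heart, a log2 ratio of 2.44 (1.85 to 3.13), or 5.43-fold. Aqp3 was counted 6 and 38 times, a log2 ratio of 2.57 and a 5.94-fold difference (2.66 to 18.4). Aqp4 was counted 45 and 117 times, at 1.37 (0.88 to 1.91), and Aqp6 14 and 41 times, at 1.52 (0.65 to 2.54). None of Aqp2, Aqp3, Aqp4 and Aqp6 exceeded 7 RPKM in either heart. Aqp8 was counted 2 and 25 times, at 3.35 (1.64 to 6.77), Avpr2 136 and 269 times, at 0.99 (0.69 to 1.30), and Aqp11 5 and 13 times, at 1.30 (−0.20 to 3.22), under the minimum mean. In total 8 of 9 passed the filter, 6 were called higher and none lower, and the median over the 8 was 1.45. Over all 15871 genes of the heart comparison 10.7% were called higher and 12.7% lower, with a median of −0.003. When mice were assumed to vary by a coefficient of 0.2 in edgeR's exact test, 4 members were called higher, Aqp2, Aqp3, Aqp4 and Aqp8, where 292 genes were called higher among all 15871. At a coefficient of 0.4, 2 members were called higher, Aqp2 and Aqp8, where 42 genes were among all. Members with few reads passed the filter through the CLP + MLT library, where they are high, so the count of 6 supports nothing beyond these values.

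Many markers of kidney tubules were higher in the CLP + MLT heart library too, though not in every list. Of 46 markers of principal, intercalated, proximal, thin limb, thick limb and distal tubule cells, 35 passed the filter in heart, 22 were called higher and 3 lower, and the median log2 ratio was 0.82. Over all genes of the heart comparison 10.7% were called higher and 12.7% lower. As with the members, markers with few reads passed the filter through the CLP + MLT library, where they are high. The count of 22 and the median therefore support nothing beyond these values. Slc34a1, the phosphate transporter of the proximal tubule, was counted 587 and 1454 times, at 1.31 (1.17 to 1.45), and Slc12a1, the salt transporter of the thick limb, 137 and 411 times, at 1.59 (1.31 to 1.88). Of the thick limb and distal markers 6 passed and 2 were called higher, with a median of 0.26. Umod was at 0.03 (−0.16 to 0.22) and Egf at −0.19 (−0.50 to 0.12). Of the thin limb markers 3 passed, 1 was called higher and 1 lower, with a median of −0.48. Principal cell markers summed to 16.9 CPM in the CLP heart, with Elf5 at 0, and to 28.1 CPM in the CLP + MLT heart, with none at 0. Cardiomyocyte markers summed to 38574 and 26025 CPM. The part of the kidney markers in the higher values of the aquaporins was not tested.

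The heart level was therefore also given as a percentage of the kidney level of the same treatment. Over the 40 tubule markers with at least 10 CPM in both kidney libraries, this percentage had a median of 1.73% in CLP, with the 10th and 90th percentiles at 0.446% and 6.56%, and a median of 2.54% in CLP + MLT, with percentiles of 1.26% and 9.03%. Aqp2 stood at 0.661% (0.431 to 0.969) in CLP and 3.53% (2.97 to 4.17) in CLP + MLT, and Aqp6 at 1.66% (0.904 to 2.79) and 3.61% (2.58 to 4.93). Aqp11 stood at 1.30% (0.420 to 3.04) and 3.23% (1.71 to 5.58). These genes lay between the 10th and 90th percentiles of the tubule markers in both treatments. Aqp3 was just below that range in CLP, at 0.399% (0.146 to 0.870), and within it in CLP + MLT, at 2.71% (1.91 to 3.74). Aqp4 lay above it, at 8.30% (6.01 to 11.2) and 12.5% (10.3 to 15.2). Avpr2 was at 35.4% (29.2 to 42.6) and 39.2% (34.1 to 45.1), and how reads over the bases shared with Arhgap4 were counted is not known. Aqp1, at 80.6% and 59.3%, and Aqp7, at 115% and 136%, stood far above the markers. In CLP + MLT, Aqp8 had 25 reads in heart against 5 in kidney, 585% (220 to 1957) of the kidney level.

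**Figure D5:**
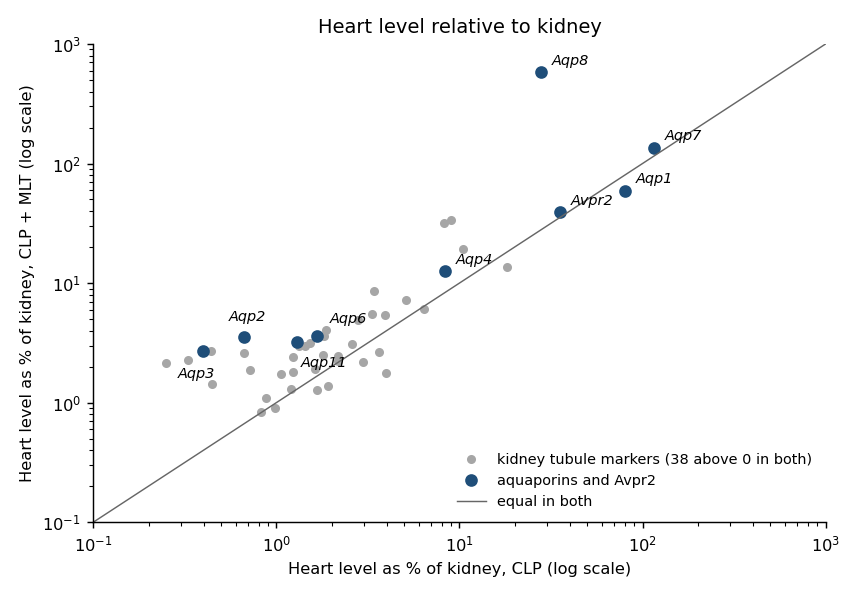
Heart level as a percentage of the kidney level, in CLP (horizontal) and CLP + MLT (vertical), both on log scales. Grey points are kidney tubule markers above 0 in both, blue points the 9 genes; Aqp2, Aqp3, Aqp6 and Aqp11 lie among the markers, 30 of 38 markers lie above the line of equality, and Aqp1, Aqp7, Aqp8 and Avpr2 lie apart.

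Kidney was then compared with heart over all 4 libraries, with edgeR's quasi-likelihood test and treatment as a covariate, which leaves 1 residual degree of freedom. The spread here is what the tissue and treatment terms leave over in the 4 libraries, and it does not measure the variation among mice. The adjusted p-values are Benjamini-Hochberg values over 17088 genes. Of the 9 genes 6 were called higher in kidney and 0 in heart, where 30.5% of all genes were called higher in kidney and 27.1% higher in heart. Aqp3 was 71.4-fold higher in kidney, a log2 difference of 6.16 (adjusted p = 3.01e-06), and Aqp2 58.6-fold higher, at 5.87 (adjusted p = 7.13e-06). Aqp11 was at 5.46 (adjusted p = 1.4e-06), Aqp6 at 5.25 (adjusted p = 5.88e-07) and Aqp4 at 3.27 (adjusted p = 2.7e-06). Avpr2 was 2.68-fold higher in kidney, at 1.42 (adjusted p = 0.000314). Without the treatment term it was at 1.40, and without both that term and the CLP + MLT kidney library it was smaller, at 0.92. The size of the Avpr2 difference thus depended on that library, and with 1 kidney library left that fit gives a size only. All 6 were higher in kidney within CLP and within CLP + MLT.

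Within the treatments the size of the difference varied. The log2 difference of Aqp2 was 7.22 (6.69 to 7.86) in CLP and 4.82 (4.58 to 5.08) in CLP + MLT, and that of Aqp3 was 7.89 (6.84 to 9.42) and 5.19 (4.74 to 5.71). Most of this gap came from the heart libraries, since both genes were nearly level in kidney. Aqp4 varied less, at 3.58 (3.16 to 4.06) and 2.99 (2.72 to 3.29).

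Aqp1, Aqp7 and Aqp8 were not called in either direction. Aqp1 was 1.45-fold higher in kidney (log2 0.53, adjusted p = 0.155), at 0.31 (0.27 to 0.35) within CLP and 0.75 (0.71 to 0.80) within CLP + MLT. By total counts only, it was called higher in kidney at 0.82 (adjusted p = 0.038). Aqp7 was at −0.32 (adjusted p = 0.197), slightly higher in heart within both treatments. Aqp8 was at −0.69 (adjusted p = 0.625), and its direction turned between the treatments, from 1.67 (−0.30 to 5.03) in CLP to −2.43 (−4.29 to −1.14) in CLP + MLT. Without the CLP heart library and without the treatment term, Aqp8 was at −2.09.

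The genes whose pattern over the 4 libraries lay nearest to a member were taken by Euclidean distance of centred log2 CPM, among the 13474 genes whose mean count was 50 or more. Nearest to Aqp1 were Ccdc114 (distance 0.048), Ppp1r26 and Mblac2. Nearest to Aqp2 were Slc2a5 (0.154), a fructose transporter gene, Gm15962 and the row named Mir196a-1. Nearest to Aqp3 were A4gnt (0.207), Arfgef3 and 2310007B03Rik, which had 0 reads in the CLP heart. Nearest to Aqp4 were Kif20b (0.141), 0610040F04Rik and Lyplal1. Nearest to Aqp6 were Ces1f, ccdc198 and Lrp2 (0.143), the proximal tubule receptor megalin, and to Aqp11 Cyp4a10 (0.137), Atp6v0d2, a proton pump subunit of intercalated cells, and Cyp4a31. Nearest to Aqp7 were Vangl1 (0.055) and Dhtkd1, and to Avpr2 Car9 (0.154), Dnah7b and Fgfbp3. Aqp8 was under the minimum of 50 counts. With 4 libraries as points, such likeness describes these libraries alone.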

How the data were processed

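RNA-seq of 4 mouse libraries, 1 per group, was analysed. The authors trimmed reads with trim-galore, aligned them to mm10 with HISAT2 2.1.0 and deposited raw counts per gene. The submitters' processing notes name HTSeq. Neither strand setting nor annotation is stated in any source used here. The 5 totals that name no gene (65.5% to 72.8% of each file's sum) were left out of library sizes. Identifiers without version matched GENCODE M21 for 55141 of 55401 rows, and 260 did not match.

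Within each tissue, log2 ratios used TMM factors (edgeR 4.0.16, R 4.3.3), a prior count of 0.5 and a minimum mean of 10 counts, and a fold of at least 1.5 was called, after the fold in the study's methods. With 1 library per group this is no test. CPM values, RPKM values and heart percentages are scaled with TMM factors taken over all 4 libraries. Intervals of ratios, percentages and shares are 95% Clopper-Pearson intervals (scipy 1.17.1, Python 3.11.15, numpy 2.4.6, pandas 2.3.3). Those of RPKM values are 95% exact Poisson intervals, and those of gene pairs 95% conditional intervals of an odds ratio. Tissues were compared with edgeR's quasi-likelihood test, called at an adjusted p of at most 0.05 and a fold of at least 1.5. Both procedures were tested on simulated data. Alternatives were other scalings (total counts only, DESeq2 1.42.0 size factors, upper quartile, no mitochondrial or haemoglobin genes), filters (none, 50 counts), a prior count of 5, other call rules, DESeq2's Wald test, no treatment term and leaving out each library. The fits that left out a library had no treatment term.

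All 9 members are named. From each other list, up to 4 genes per tissue with the largest absolute log2 ratio and a mean of at least 100 counts could be named, and every other aquaporin and vasopressin or oxytocin gene. Prkar2b, Elf5, Nfat5, the principal cell markers below 0 in kidney, Slc34a1 in kidney and the sparse fat cell markers fall outside this rule and were named after their values were seen. Arhgap4 is named for its overlap. The 3 genes nearest to each member were taken. The values of 2 genes that these rules select are not reported here. The members and lists were chosen with earlier results of these data known. Figures were drawn with matplotlib 3.10.9.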

Additional observations from a re-analysis of the deposited data

Results flagged for a closer look

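For 3 of the 9 genes, Aqp1, Aqp3 and Aqp8, the libraries gave log2 ratios of CLP + MLT over CLP with opposite signs in the tissues, and with 1 library per group the difference was not tested. Aqp1 was at 0.43 in kidney and −0.03 in heart, a difference of −0.46 as heart minus kidney, and the heart interval included 0. Aqp3 was at −0.08 in kidney and 2.57 in heart, a difference of 2.65, and the kidney interval included 0. Aqp8 was at −0.68 in kidney and 3.35 in heart, a difference of 4.03, on 13 and 5 reads in kidney and 2 and 25 in heart.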

How the results depend on the processing

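In kidney, 2 members called higher became 0 at a fold of at least 2 and 0 at assumed coefficients of variation of 0.2 and 0.4 in edgeR's exact test. Without a filter 1 member, Aqp8, was called lower. In heart, 6 members called higher became 3 under a minimum mean of 50 counts (Aqp2, Aqp4 and Avpr2) and 2 (Aqp2 and Aqp8) at an assumed variation of 0.4. Between the tissues, leaving out each library gave 5 to 6 members called higher in kidney and 0 to 1 in heart, Aqp8 without the CLP heart library. Without the CLP + MLT kidney library, the log2 difference of Avpr2 was 0.92, against 1.42 in the main fit. The other 61 checks of these counts stayed within 1.5 times. By total counts only, 1149 kidney genes were called higher and 3172 lower, against 1801 and 2038, and Aqp2, Aqp7 and Aqp11 in kidney and Aqp1 in heart turned sign. At an assumed variation of 0.4, 23 genes were called higher and 69 lower in kidney, and 42 and 21 in heart. At 0.2 these were 276 and 337, and 292 and 373. A fold of at least 2 gave 680 and 849, and 727 and 833. Without a filter they were 4649 and 6051, and 5063 and 5400. Under the minimum mean of 50 counts they were 954 and 1055, and 711 and 1160. With the interval wholly beyond 1.5-fold they were 579 and 592, and 457 and 718. The cause was not tested where the construction does not give it. Between the tissues the treatment term pairs the libraries of each treatment, and without it the count stayed at 6. The fits that left out a library also lacked this term. No paired analysis was possible because each group has 1 library, as far as CLP + MLT against CLP is concerned. Depth limits Aqp8, Aqp11 and the other low members in heart.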
